A study of Mus musculus with 16 samples.

Results

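The genes described here encode the contractile apparatus of striated muscle, together with the regulators that mark muscle lineage and fibre type. The set holds 41 named genes of the 25719 genes counted: 6 myosin heavy chains, 5 myosin light chains, 10 thin filament genes, 7 scaffold and Z disc genes, 2 energy and oxygen genes, 4 calcium handling genes, 5 myogenic transcription factors and 2 acetylcholine receptor subunits. All 41 were found among the counted genes. Their levels were read in 16 RNA libraries of mouse tail tendon fascicles (TTFs), the collagen strands pulled from the tail, which transmit force from tail muscles to the vertebrae. The 8 WT libraries came from wild type animals, and the labels do not say whether these carried a floxed allele or a Cre. The 8 KO libraries came from ScxCre;Vhlf/f animals, in which Cre recombinase is driven by the control region of Scx, a transcription factor of tendon cells and their progenitors, and removes a floxed part of Vhl, the ubiquitin ligase subunit that targets hydroxylated hypoxia-inducible factors for degradation. No age, sex or treatment was given for either group. The labels name all cells of the tissue as the source, so each library mixes tendon cells with whatever muscle, vessel, blood and nerve the strand carried. Nothing states that the libraries of a group came from separate animals, so the p-values measure the spread between these libraries.

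Muscle fibres contract when myosin heavy chains in the thick filament pull on actin in the thin filament, under the control of calcium, troponin and tropomyosin. Fibre types differ in which isoform of each part they use. In rodent muscle Myh7 marks slow oxidative fibres, Myh2, Myh1 and Myh4 mark the fast fibre types 2A, 2X and 2B, and Myh3 and Myh8 encode the embryonic and perinatal chains that are made in developing and regenerating fibres. Slow fibres pair Myh7 with their own light chains and troponins (Myl2, Myl3, Tnnt1, Tnni1, Tnnc1), and fast fibres pair theirs with Myl1, Mylpf, Tnnt3, Tnni2 and Tnnc2. The myogenic factors Myod1, Myog, Myf5 and Myf6 switch on muscle genes in myoblasts, and Pax7 marks the satellite cells that regenerate fibres.

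The promoters of 5 members on which the comparisons below turn are shown first, because the results turn on how these genes differ. Myh3, Tnnt2, Chrna1 and Myh7 were higher in the KO, and Myh1 is the fast chain over which heavy chain ratios were taken. Each line gives the 250 bases before the annotated start in RefSeq on GRCm38.p6, read 5′ to 3′ on the gene's strand. Capitals mark matches to 4 short motifs searched on both strands, and in the windows shown no match overlaps another. CAGCTG is an E-box of the form that myogenic factors bind. The core of the MCAT element, a muscle promoter sequence, was searched as CATTCC. For the hypoxia response element the core searched was ACGTG, which many other sequences also hold. The TATA box, which helps to position the start of transcription, was searched as TATAAA. A motif on the other strand appears as its reverse complement. Tnnt2 and Myh7 have 2 windows each in the table, of which 1 is shown.
Myh3 (chr11:67078050-67078299, plus strand): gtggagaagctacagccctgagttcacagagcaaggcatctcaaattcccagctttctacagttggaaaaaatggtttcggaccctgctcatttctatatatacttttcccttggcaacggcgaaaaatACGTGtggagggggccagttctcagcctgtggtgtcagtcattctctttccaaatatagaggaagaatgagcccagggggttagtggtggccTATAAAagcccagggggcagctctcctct
Tnnt2 (chr1:135836084-135836333, plus strand): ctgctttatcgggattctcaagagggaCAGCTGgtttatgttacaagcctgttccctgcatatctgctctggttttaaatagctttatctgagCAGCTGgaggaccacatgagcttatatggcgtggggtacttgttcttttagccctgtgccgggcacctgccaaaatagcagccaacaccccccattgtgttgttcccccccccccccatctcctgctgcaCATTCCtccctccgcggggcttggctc
Chrna1 (chr2:73580339-73580588, minus strand): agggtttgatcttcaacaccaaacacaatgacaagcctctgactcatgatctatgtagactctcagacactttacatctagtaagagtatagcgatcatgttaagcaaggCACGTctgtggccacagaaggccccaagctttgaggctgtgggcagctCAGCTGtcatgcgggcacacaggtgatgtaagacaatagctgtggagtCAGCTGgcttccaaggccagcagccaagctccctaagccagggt
Myh7 (chr14:54994627-54994876, minus strand): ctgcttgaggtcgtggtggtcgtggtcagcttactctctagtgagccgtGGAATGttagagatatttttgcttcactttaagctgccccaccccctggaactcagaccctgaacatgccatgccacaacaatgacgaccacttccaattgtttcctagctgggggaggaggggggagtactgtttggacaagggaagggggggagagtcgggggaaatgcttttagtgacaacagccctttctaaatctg
Myh1 (chr11:67199852-67200101, plus strand): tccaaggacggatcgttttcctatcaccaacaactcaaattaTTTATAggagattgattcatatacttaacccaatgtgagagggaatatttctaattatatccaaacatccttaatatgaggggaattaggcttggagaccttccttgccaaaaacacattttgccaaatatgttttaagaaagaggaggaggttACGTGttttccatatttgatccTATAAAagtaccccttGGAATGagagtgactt

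Windows were found for 35 of the 41 genes. A gene was counted if any of its windows held the motif, while the percentages below are shares of single windows. Genes with more windows had more chances of a match, so the counts and percentages are not in like units. CAGCTG was present in 16 of the 35 and in 13.0% of all 32851 windows of this length in the table. In the windows shown it stood 223 and 157 bases before the start of Tnnt2 and 92 and 44 bases before the start of Chrna1. CATTCC was present in 9 of the 35 genes and 12.6% of all windows, and TATAAA in 8 of the 35 and 12.4%. ACGTG was present in 4 of the 35 (Actn2, Chrna1, Myh1 and Myh3) and 16.6% of all windows, 121 bases before the start of Myh3 and 54 bases before that of Myh1. These matches describe letters in a window and say nothing about binding.

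Total counts ran from 10488355 to 18753254 in the KO and from 10792900 to 16379401 in the WT. Vhl counts, which cover the whole gene, were 9.36 ± 1.25 CPM (counts scaled to a common library size; SD, n = 8) in the KO and 20.5 ± 3.69 CPM (SD, n = 8) in the WT, and the groups did not overlap. A floor of 3 counts corresponded to between 0.145 and 0.336 CPM by library. The 9 tendon markers (among them Tnmd, Scx, Fmod and the type I collagens) were all counted in both groups and summed to between 82380 and 183800 CPM in the KO and between 136600 and 386500 in the WT, with 7 of 9 lower in the KO, against 22.7% of all tested genes. Keratinocyte markers summed to at most 3.96 CPM in any library, and Krt1 and Krt15 were at 0 in all.

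The amount of muscle transcript varied widely between libraries of the same genotype. The 41 genes took 2.52%, 3.30% and 2.94% of the counts in KO 6, 7 and 8, and between 0.0781% and 0.546% in the other 5 KO libraries. In the WT they took 1.13% in WT 5, between 0.119% and 0.276% in WT 3, 4 and 7, and between 0.0220% and 0.0274% in WT 1, 2, 6 and 8. Acta1, the skeletal muscle actin, had only 25 to 52 counts in each of those last 4 libraries and 789 to 40134 in the KO. The plot of levels by library shows that most members follow this gradient together. A muscle level was therefore computed for each library as the mean log2 CPM of 12 muscle genes outside the set, among them Tcap, Trdn and Cacna1s. It ran from 1.33 to 6.34 in the KO (median 3.07) and from -1.09 to 4.74 in the WT (median 0.67). In bulk tissue, fewer cells of a type and less RNA per cell cannot be told apart.

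**Figure D1:**
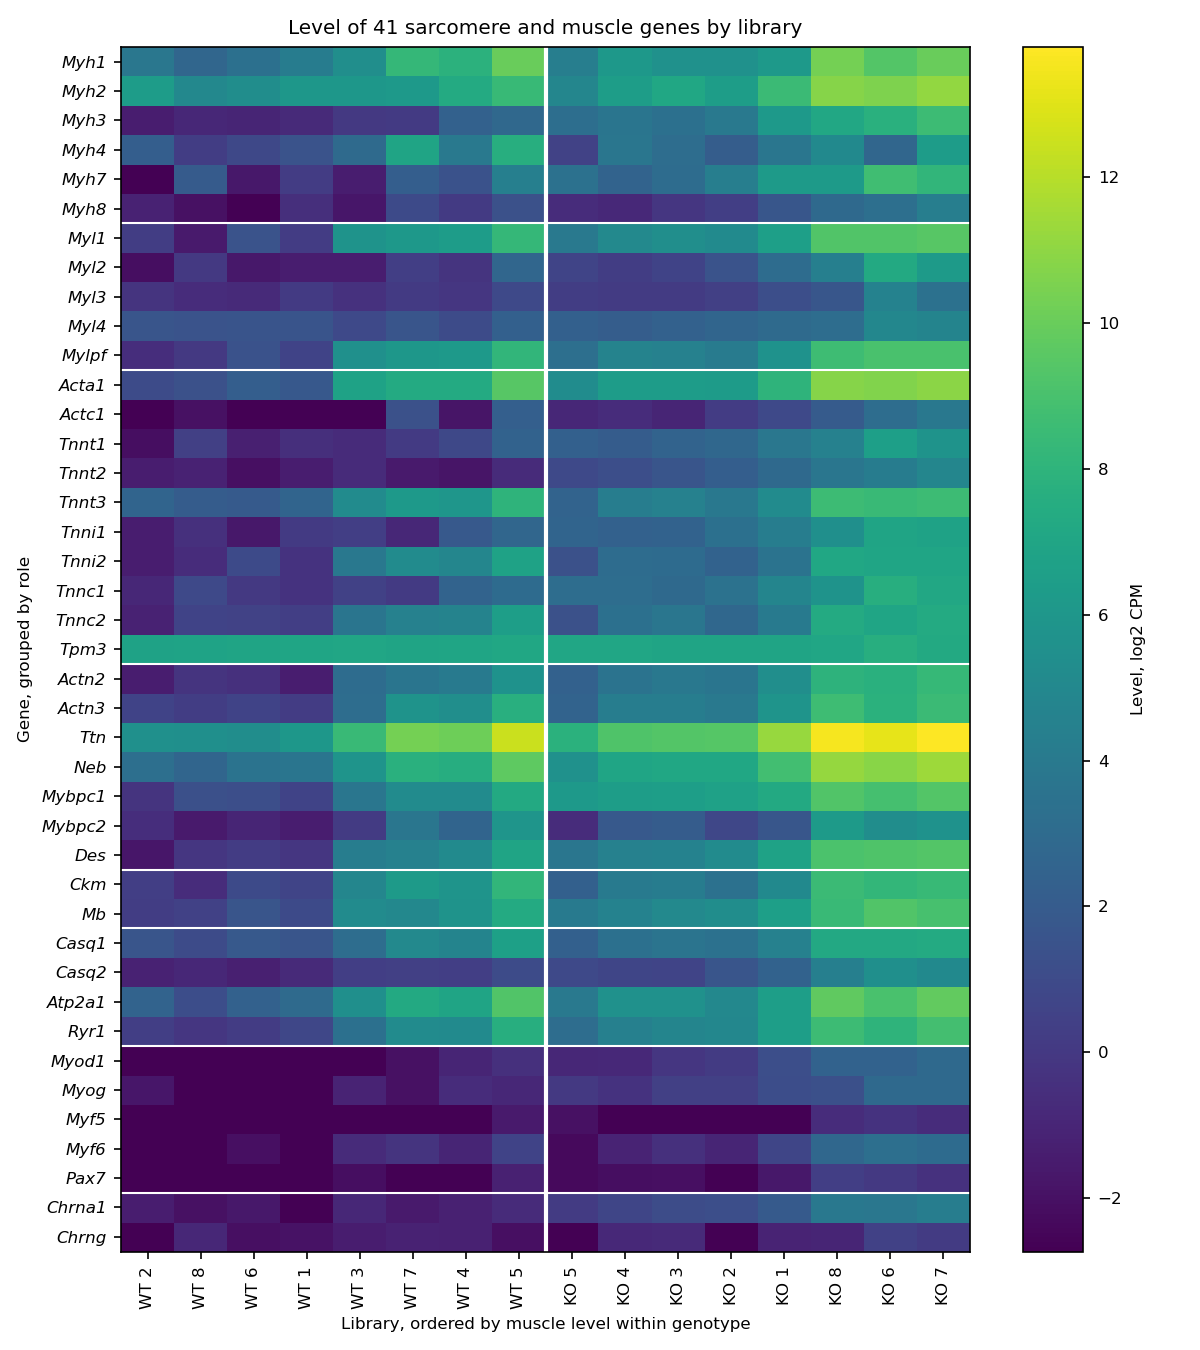
Level of each of the 41 genes (rows, grouped by role) in each library (columns, ordered by muscle level within genotype), as log2 CPM by colour. Most rows brighten from left to right within each genotype, while Tpm3 keeps 1 colour, and Myh3, Tnnt2 and Chrna1 are darker in every WT column than in any KO column.

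The first comparison asked which of these genes differed between the genotypes as the libraries stand. Of the 33 members that passed the expression filter, 15 were higher in the KO, 0 were lower and 18 did not pass the threshold (edgeR quasi-likelihood F test with Benjamini-Hochberg adjustment over 14803 genes, adjusted p under 0.05). Among all 14803 tested genes, 25.6% were called higher and 22.7% lower. The 15 were Myh2, Myh3, Myh7, Myl2, Myl3, Myl4, Actn2, Tnnt1, Tnnt2, Tnni1, Tnnc1, Mybpc1, Des, Casq2 and Chrna1. The median log2 fold change was 2.34 over the 33 members and 0.02 over all tested genes. Standard errors of members often exceeded 1 log2 unit because of the gradient within each genotype. WT 5, the WT library richest in muscle, bears most on the count: without it 23 members passed. Under limma-voom, with quality weights for libraries, the calls of Myh2 (2.04, adjusted p = 0.0546), Myh7 (5.46, 0.0520), Myl2 (4.21, 0.104), Myl3 (1.88, 0.0598) and Actn2 (4.40, 0.0559) were lost. Those of Myl1 (3.87, 0.0429), Acta1 (3.87, 0.0389), Neb (3.39, 0.0334), Mb (3.54, 0.0313) and Ryr1 (3.72, 0.0342) were gained, so that 15 again passed. Every KO library lay above every WT library for 3 of the 33 (Myh3, Tnnt2 and Chrna1), against 10.8% of all tested genes, and no member had every KO library below every WT library, against 8.61%. These 3 members passed the expression filter only through their KO libraries, which favours such a separation. Tnnt2 and Chrna1 held at most 6 and 5 counts in any WT library.

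The second comparison set the genotypes side by side at the same muscle level, by adding that level to the model as a covariate. Here 12 members were higher in the KO, 10 were lower and 11 did not pass, against 22.0% and 19.0% of all tested genes. The median over the 33 members was 0.08. The genes split along the isoform pairs. Of the 7 slow isoforms set over a fast partner (Myh7, Myl2, Myl3, Tnnt1, Tnni1, Tnnc1 and Mybpc1), 6 were higher and 0 lower, and Myl3 did not pass. Of their 7 fast partners (Myh1, Mylpf, Myl1, Tnnt3, Tnni2, Tnnc2 and Mybpc2), 6 were lower and 0 higher, and Myl1 did not pass. Each slow isoform had between 0 and 9 counts in its lowest WT library. All 7 passed the expression filter only through their KO libraries, which favours genes that are high there. Of the fast partners, Mylpf, Myl1, Tnni2, Tnnc2 and Mybpc2 had 2 to 7 counts in their lowest WT library. Myh1 and Tnnt3 had 66 and 43. The covariate is read from the same libraries and is itself higher in the KO (median 3.07 against 0.67 in the WT). Only KO 6, 7 and 8 lay above the highest WT library. Of its 12 genes, 1 (Jsrp1) was called higher at equal muscle level (0.71, edgeR quasi-likelihood F test, adjusted p = 0.0113) and 0 lower. When the covariate was Tcap alone, 23 members passed, beside 6104 of all 14803 tested genes.

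**Figure D2:**
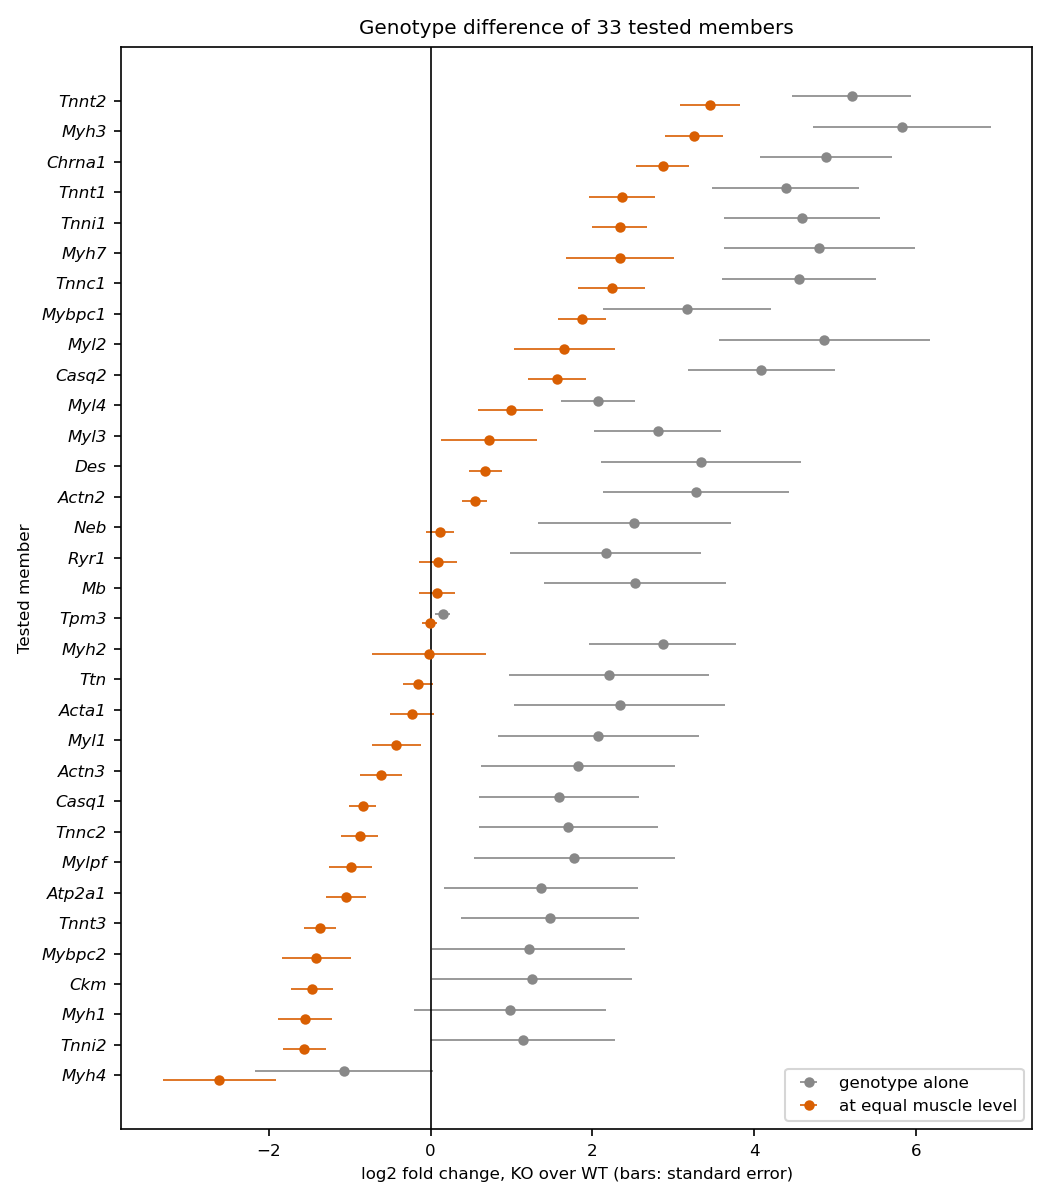
Log2 fold change of KO over WT for the 33 tested members, with genotype as the only term (grey) and at equal muscle level (orange), with bars for the standard error. Grey points sit mostly right of 0 with wide bars, and orange points run from -2.61 for Myh4 to 3.46 for Tnnt2.

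Among the heavy chains, Myh3 differed most. Its lowest, median and highest values were 9.05, 44.5 and 392 CPM in the KO and 0.227, 0.653 and 7.11 CPM in the WT. All 8 KO libraries lay above the highest WT library, WT 5. The log2 fold change was 5.82 (SE 1.10, adjusted p = 4.55e-04) and 3.26 at equal muscle level (SE 0.354, adjusted p = 1.09e-06). Myh7, the slow chain, had 5.63, 48.9 and 421 CPM in the KO and 0, 1.76 and 21.0 CPM in the WT. The groups overlapped, and 4 KO libraries lay within the WT range. Its log2 fold change was 4.80 (SE 1.18, adjusted p = 0.00359), and 2.34 at equal muscle level (SE 0.668, adjusted p = 0.0103).

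The 3 adult fast chains behaved differently from these. Myh2, the 2A chain, had 28.5, 256 and 2182 CPM in the KO and 31.4, 69.3 and 332 CPM in the WT. It was higher in the KO as the libraries stand (log2 fold change 2.87, SE 0.909, adjusted p = 0.0174), but KO 5 lay below every WT library and at equal muscle level the difference was -0.02 (SE 0.703, adjusted p = 0.984). Myh1, the 2X chain, did not pass with genotype alone (0.98, adjusted p = 0.522) and was lower at equal muscle level (-1.55, SE 0.328, adjusted p = 0.00108). Myh4, the 2B chain, was at -1.07 with genotype alone (adjusted p = 0.448) and was lower at equal muscle level (-2.61, SE 0.703, adjusted p = 0.00778). Myh8, the perinatal chain, reached at most 20.03 CPM in the KO and 2.40 in the WT and did not pass the filter. Reads of Myh1, Myh2, Myh4 and Myh8 may have been split or shared between these genes: 26.1%, 26.7%, 18.6% and 19.9% of their 50-base stretches also occur in another member, against 3.66% for Myh3 and 0.21% for Myh7.

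Setting heavy chains against each other within a library cancels the depth of the library. Myh3 counts were 11.4%, 32.1% and 101% of Myh1 counts in the KO (lowest, median and highest) and 0.292%, 2.07% and 6.06% in the WT, without overlap. On the log2 scale, with 0.5 added to each count, the difference was 4.07 (SE 0.595), a 16.8-fold difference in the ratio (two-sided exact permutation test over every split of the 16 libraries, p = 0.000155, the smallest this design allows; adjusted over 18 ratios, 0.00280). Myh7 counts were 6.04%, 34.2% and 105% of Myh1 counts in the KO and 0%, 1.59% and 62.1% in the WT. The overlap came from WT 8, whose 62.1% rests on 41 counts of Myh7 and 66 of Myh1, and the next WT library stood at 5.49%. The difference was 3.70 (SE 0.979; exact permutation test, p = 0.00326, adjusted 0.00999).

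Over all 16 libraries the remaining heavy chain ratios did not pass. Their differences were 0.98 for Myh8 over Myh1 (SE 0.619, adjusted p = 0.189), 0.41 for Myh2 over Myh1 (SE 0.684, adjusted p = 0.590) and -1.32 for Myh4 over Myh1 (SE 0.603, adjusted p = 0.0618), all by the exact permutation test. The first 2 passed in the 9 libraries of shared muscle level described further on, at 2.28 and 2.02 (exact permutation tests, adjusted p = 0.0220 and 0.0306). There Myh8 held at most 38 counts in a library, and Myh4 over Myh1 was at -0.41 (adjusted p = 0.595). With Acta1 as the denominator, an alternative chosen after seeing the data, Myh3 kept a difference of 2.11 (exact permutation test, p = 0.0152) and Myh7 over Acta1 was at 1.74 (p = 0.129). In WT 1, 2, 6 and 8, Myh3 rested on 3 or 4 counts per library.

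Per kilobase of transcript, Myh1 and Myh2 together made up between 69.4% (KO 5) and 95.9% (WT 6) of the heavy chain counts. Myh3 took 4.40% to 13.1% of the 6 chains in the KO (median 8.20%) and 0.176% to 1.19% in the WT (median 0.584%). Myh7 took 2.26% to 14.9% in the KO (median 9.02%) and 0% to 8.95% in the WT (median 0.724%). Myh4 took 0.235% to 7.22% in the KO and 2.49% to 24.3% in the WT. The embryonic and slow chains together reached at most 28.0% in the KO, in KO 5, and stayed below Myh2 in every library of either genotype.

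**Figure D3:**
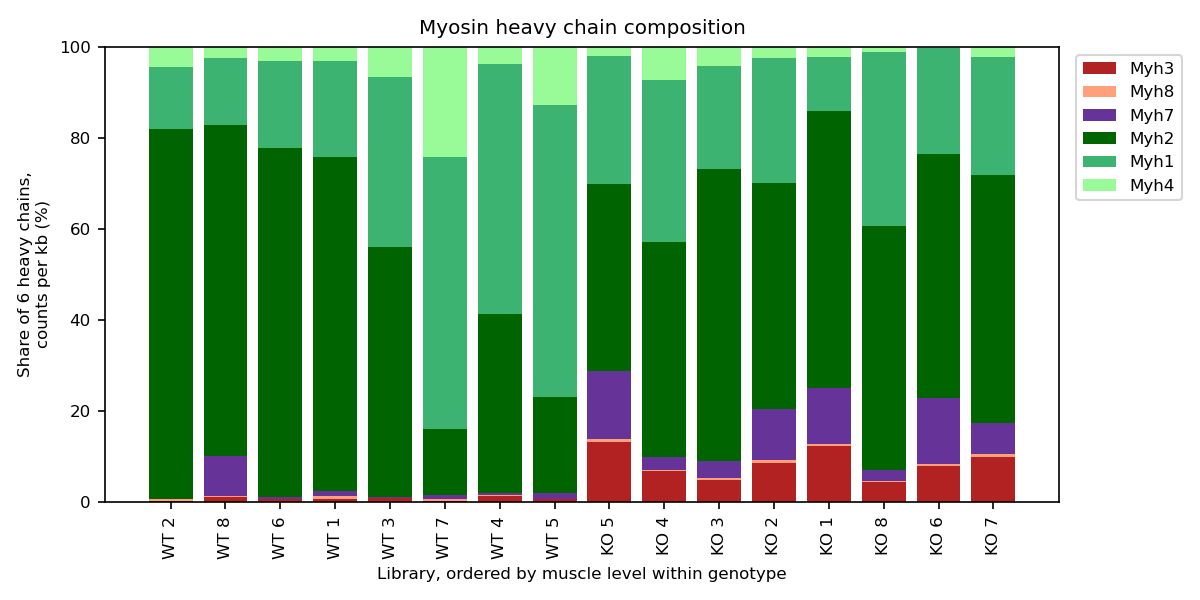
Share of each of 6 myosin heavy chains in the sum of the 6, as counts per kb of the longest coding transcript (percent), by library and ordered by muscle level within genotype. The red Myh3 segment spans 4.40% to 13.1% in the KO libraries and is at most 1.19% in the WT libraries.

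Of the 5 light chains, the slow regulatory chain Myl2 had the largest difference. It had 1.05, 5.73 and 161 CPM in the KO and 0.0756, 0.466 and 6.53 CPM in the WT, with 4 KO libraries above all WT libraries. Its log2 fold change was 4.87 (SE 1.30, adjusted p = 0.00632), and at equal muscle level it stood at 1.65 (SE 0.625, adjusted p = 0.0440), a call that was lost in 10 of the 16 fits that left out 1 library and with DESeq2 (1.19, adjusted p = 0.199). The slow and ventricular essential chain Myl3 was higher (2.81, adjusted p = 0.00776) but not at equal muscle level (0.72, adjusted p = 0.355). Myl4, the embryonic and atrial essential chain, was higher with genotype alone (2.07, adjusted p = 0.00131) and at 0.99 at equal muscle level (adjusted p = 0.0607), where it passed with DESeq2 (0.99, adjusted p = 0.0157) and with total counts (1.17, adjusted p = 0.0235). The fast chains did not pass with genotype alone, at 2.07 for Myl1 (adjusted p = 0.186) and 1.78 for Mylpf (adjusted p = 0.257). At equal muscle level Mylpf was lower (-0.99, adjusted p = 0.00607) and Myl1 was at -0.42 (adjusted p = 0.286). No light chain ratio passed: the differences were 1.02 for Myl2 over Mylpf, -1.77 for Myl3 over Myl1 and -1.83 for Myl4 over Myl1 (exact permutation tests, adjusted p = 0.345, 0.239 and 0.266). These values rest in part on WT 1, 2, 6 and 8, where Myl1 had only 2 to 31 counts. Over libraries with at least 20 counts in the pair, Myl2 over Mylpf was higher by 2.60 (exact permutation test, adjusted p = 0.00943). In the 9 libraries whose muscle levels overlap between the genotypes, described further on, all 3 light chain ratios were higher in the KO, at 3.00, 1.76 and 2.47 in the same order (exact permutation tests, adjusted p = 0.0143 for each). Reads on Myl2 and Myl3 are uncertain, since both overlap a counted gene on the other strand and the use of strand in counting was not given in the sources used here.

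In the thin filament the troponins separated by isoform. Tnnt2, the cardiac and embryonic troponin T, had 1.73, 6.02 and 28.2 CPM in the KO and 0.0844, 0.226 and 0.480 CPM in the WT. No WT library held more than 6 counts, and no KO library fewer than 28. The log2 fold change was 5.20 (SE 0.733, adjusted p = 2.22e-05), and 3.46 at equal muscle level (SE 0.372, adjusted p = 4.04e-07). Tnnc1, the slow and cardiac troponin C that binds calcium, had 7.26, 19.3 and 194 CPM in the KO and 0.378, 1.07 and 8.16 CPM in the WT. Of the 8 KO libraries, 7 lay above every WT library. Its log2 fold change was 4.55 (SE 0.951, adjusted p = 0.00104), and 2.24 at equal muscle level (SE 0.416, adjusted p = 3.47e-04). The slow troponins Tnnt1 and Tnni1, which anchor the complex to tropomyosin and inhibit actin, were higher by 4.39 (adjusted p = 9.72e-04) and 4.59 (adjusted p = 0.00110), and by 2.36 and 2.34 at equal muscle level.

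The fast troponins showed no call with genotype alone. Tnnt3, Tnni2 and Tnnc2 stood at 1.47, 1.15 and 1.70 (adjusted p = 0.289, 0.429 and 0.221). At equal muscle level all 3 were lower, at -1.37 (adjusted p = 2.25e-05), -1.56 (adjusted p = 1.71e-04) and -0.87 (adjusted p = 0.00486). Within libraries, slow over fast was higher in the KO for troponin T (2.73, SE 0.700, adjusted p = 0.00999), troponin I (2.43, SE 0.926, adjusted p = 0.0373) and troponin C (1.91, SE 0.772, adjusted p = 0.0460), all by the exact permutation test. The calls for troponin I and troponin C were each lost in 10 of the 16 fits that left out 1 library. In WT 1, 2, 6 and 8 the slow troponins had few counts: 1 to 12 of Tnnt1, 2 to 8 of Tnni1 and 5 to 18 of Tnnc1. In the 9 libraries of shared muscle level the 3 differences were 4.39, 4.62 and 3.85 (exact permutation tests, adjusted p = 0.0143 for each). The ratio of Tnnt2 over Tnnt3 was 3.06 (SE 0.848, adjusted p = 0.00979). Acta1 differed by 2.34 (SE 1.30, adjusted p = 0.154) and by -0.24 at equal muscle level (adjusted p = 0.524). In the 9 libraries of shared muscle level, with the covariate, Acta1 was lower (-0.55, edgeR quasi-likelihood F test, adjusted p = 0.00926). Actc1, the cardiac actin of early muscle, reached 14.8 CPM in the KO and 4.61 in the WT and was not tested. Tpm3, a tropomyosin that non-muscle cells also make, was 138 ± 26.7 CPM in the KO and 124 ± 8.28 CPM in the WT (SD, n = 8). It varied little with the muscle level, except that KO 6 and KO 7, the libraries richest in muscle, held 197 and 157 CPM. KO 8, almost as rich, held 131 CPM. Tnnc2 overlaps a counted gene on the other strand, so its reads are uncertain.

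**Figure D4:**
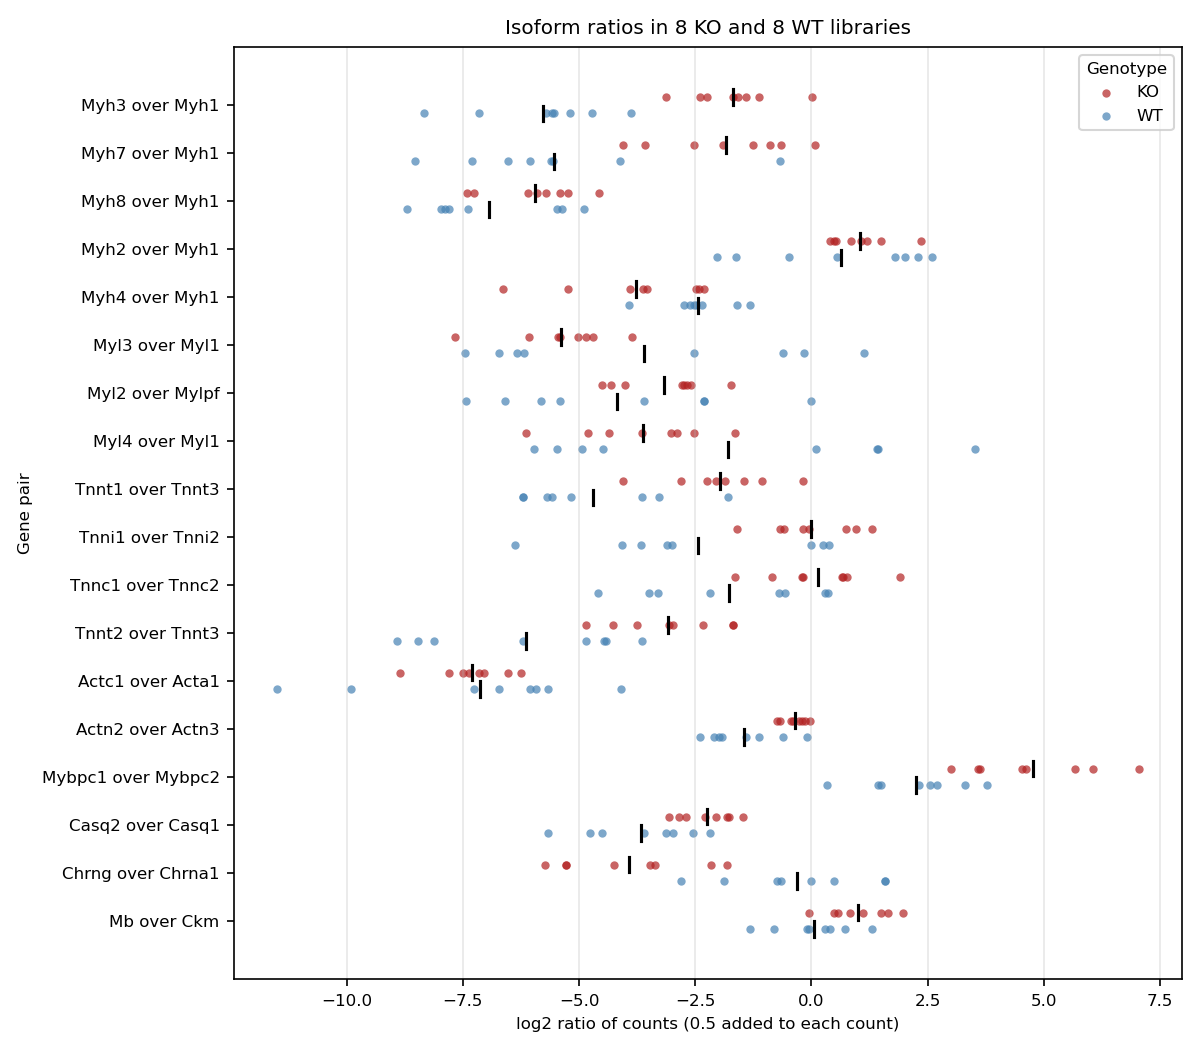
Log2 ratio of counts (0.5 added to each) for 18 gene pairs, 1 point per library, KO in red and WT in blue, with a bar at each group mean. The Myh3 over Myh1 points do not overlap between the groups, and Chrng over Chrna1 is the pair whose ratio was lower in the KO with an adjusted p under the threshold.

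Over all 18 pairs, 10 ratios were higher in the KO, 1 was lower and 7 did not pass. Beside the pairs already given, Actn2 over Actn3 was higher by 1.10 (SE 0.295, adjusted p = 0.00999), Mybpc1 over Mybpc2 by 2.53 (SE 0.629, adjusted p = 0.00653), Casq2 over Casq1 by 1.42 (SE 0.469, adjusted p = 0.0168) and Mb over Ckm by 0.95 (SE 0.378, adjusted p = 0.0450), by exact permutation tests. In the 9 libraries of shared muscle level described further on, Actn2 over Actn3 was at 1.00 and did not pass (exact permutation test, adjusted p = 0.0804). In WT 1, 2, 6 and 8, Actn2 had only 2 to 7 counts. The Mb over Ckm call was lost in 11 of the 16 fits that left out 1 library. Actc1 over Acta1 was at -0.17 (adjusted p = 0.858). Chrng over Chrna1 was lower by 3.62 on the log2 scale (SE 0.756, adjusted p = 0.00653), but no WT library held more than 5 counts of either gene.

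Titin (Ttn), the elastic filament that runs from the Z disc to the middle of the sarcomere, and nebulin (Neb), which lies along the thin filament, were the most abundant of the scaffold genes in CPM, which is not corrected for their length. Ttn had 226, 1595 and 14230 CPM in the KO and 41.2, 206 and 5791 CPM in the WT. Neither passed with genotype alone (2.21, adjusted p = 0.156, and 2.52, adjusted p = 0.0953) or at equal muscle level (-0.15 and 0.12). Mybpc1, the slow myosin-binding protein C, had 68.4, 133 and 651 CPM in the KO and 0.681, 7.79 and 159 CPM in the WT. It was higher by 3.17 (SE 1.03, adjusted p = 0.0202) and by 1.87 at equal muscle level (SE 0.300, adjusted p = 8.32e-05). Its fast counterpart Mybpc2 was at 1.21 (adjusted p = 0.426) and was lower at equal muscle level (-1.41, adjusted p = 0.0138), a call lost with DESeq2 (-1.24, adjusted p = 0.0559) and without WT 5 (-1.10, adjusted p = 0.137). Desmin (Des), the intermediate filament that links Z discs, had 13.3, 74.7 and 659 CPM in the KO and 0.151, 10.2 and 119 CPM in the WT. Des was higher by 3.34 (SE 1.24, adjusted p = 0.0376) and by 0.68 at equal muscle level (adjusted p = 0.0120), but the first call was lost in 10 of the 16 fits that left out 1 library. The Z disc crosslinker Actn2 was higher by 3.28 (adjusted p = 0.0282) and by 0.54 at equal muscle level (adjusted p = 0.00754), but the first call was lost without KO 7 or KO 8 and the second without WT 5 (0.44, adjusted p = 0.0588). Actn3, its partner in fast fibres, stood at 1.82 (adjusted p = 0.229) and -0.62 (adjusted p = 0.0674).

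Of the 6 calcium handling and energy genes, 1 was higher and 3 were lower at equal muscle level, against 22.0% and 19.0% of all tested genes. Casq2, the calcium store protein of slow and cardiac muscle, had 1.45, 4.24 and 44.9 CPM in the KO and 0.253, 0.771 and 1.92 CPM in the WT. It was higher by 4.09 (SE 0.907, adjusted p = 0.00163) and by 1.56 at equal muscle level (SE 0.359, adjusted p = 0.00177). The fast calcium store Casq1, the fast calcium pump Atp2a1 and the creatine kinase Ckm did not pass with genotype alone (1.59, 1.37 and 1.25; adjusted p = 0.203, 0.372 and 0.427). All 3 were lower at equal muscle level, at -0.84, -1.05 and -1.46 (adjusted p = 5.06e-04, 0.00293 and 2.12e-04). The calcium release channel Ryr1 and the oxygen store myoglobin (Mb) did not pass in either model, at 2.16 and 2.53 (adjusted p = 0.145 and 0.0777), then 0.09 and 0.08. Reads on Atp2a1, Mb and Mybpc1 are uncertain because each overlaps a counted gene on the other strand. Exons of Myh1, Myh2, Myh7, Myl4, Ttn, Neb, Mybpc2, Ckm, Des, Casq1 and Ryr1 overlap annotated genes on the other strand that are not in the count table, so reads of those genes could also be held in their counts.

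Chrna1 encodes the alpha subunit of the muscle acetylcholine receptor, which is made along the whole fibre before innervation and at the synapse afterwards. It had 0.939, 2.97 and 18.8 CPM in the KO and 0, 0.213 and 0.480 CPM in the WT, and the groups did not overlap. WT libraries held 0 to 5 counts and KO libraries 19 to 388. Its log2 fold change was 4.89 (SE 0.811, adjusted p = 1.15e-04), and 2.87 at equal muscle level (SE 0.332, adjusted p = 9.51e-07). Chrng, the fetal gamma subunit, reached 1.22 CPM in the KO and 0.386 in the WT and was not tested.

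None of the 5 myogenic factors passed the filter. Myog, which drives the differentiation of myoblasts, had 8 to 152 counts in the KO and 0 to 7 in the WT, or 0.643 to 7.503 CPM against 0 to 0.488 CPM, so its groups did not overlap. Myod1, which commits cells to the lineage, had 5 to 150 counts in the KO and 0 to 6 in the WT, with 5 WT libraries at 0. In a fit without the expression filter, both were higher in the KO (3.88, adjusted p = 4.86e-04, and 4.38, adjusted p = 0.00123) and at equal muscle level (2.28, adjusted p = 2.26e-04, and 2.44, adjusted p = 2.41e-05). Myf6, made in mature fibres, was higher in that fit (3.25, adjusted p = 0.0223) but not at equal muscle level (0.48, adjusted p = 0.358). Pax7 and Myf5 never exceeded 17 counts in any library, and every WT library was at or under the floor of 3 counts. The unfiltered fit called both higher (adjusted p = 0.0184 and 0.0283) and neither at equal muscle level (adjusted p = 0.535 and 0.657).

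**Figure D5:**
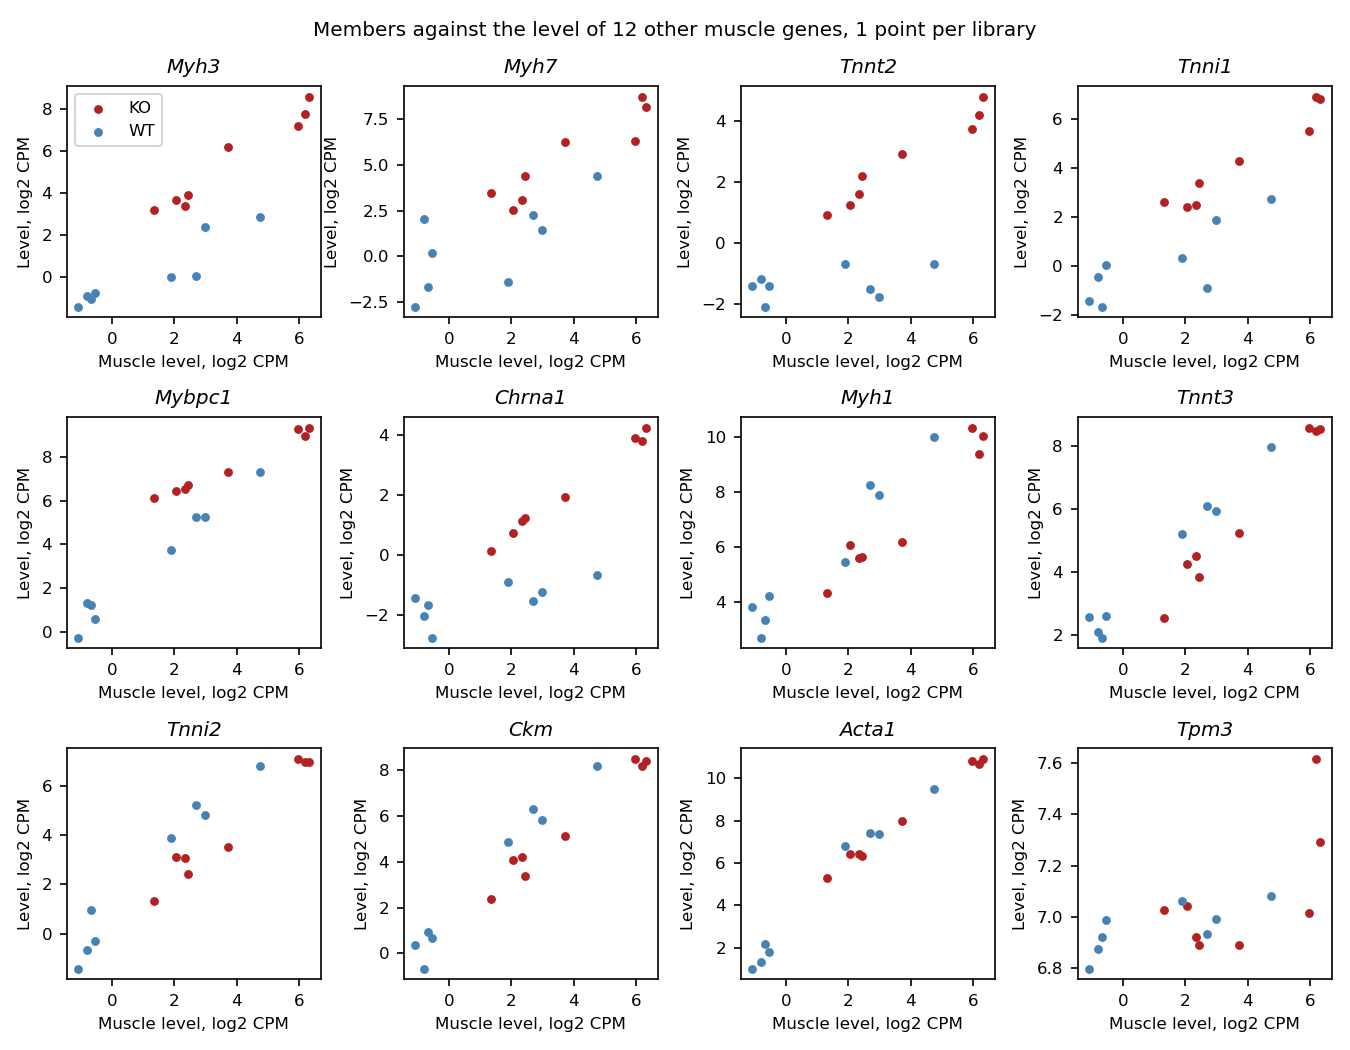
Level of 12 members (log2 CPM) against the muscle level of the library (mean log2 CPM of 12 other muscle genes), 1 point per library, KO in red and WT in blue. The KO points of Myh3, Tnnt2 and Chrna1 lie above the WT points at the same muscle level, and those of Tnnt3, Tnni2 and Ckm lie below. Acta1 rises with the muscle level in both genotypes. Between levels 1.33 and 4.74 its KO points tend to lie below the WT points.

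The muscle levels of the genotypes meet only between 1.33 and 4.74, a range that holds KO 1 to 5 and WT 3, 4, 5 and 7. Restricting the fits to these 9 libraries was chosen after seeing the data. With genotype alone, 10 of 36 members then passed, against 32.1% of all 15013 genes tested in these libraries. Tnnt2 (3.52), Chrna1 (2.58), Myog (1.80) and Myl4 (1.00) were higher, and Myh1 (-2.96), Myh4 (-3.41), Mylpf (-2.19), Tnnt3 (-2.41), Tnni2 (-2.75) and Ckm (-2.73) were lower. Myh3 was at 2.79 (adjusted p = 0.0626) and Myh7 at 1.82 (adjusted p = 0.290). With the muscle level as a covariate in the same 9 libraries, Myh3 was higher by 3.53 (adjusted p = 1.29e-04) and Myh7 by 3.21 (adjusted p = 0.00187). In that edgeR fit Acta1 (-0.55, adjusted p = 0.00926) and Myl1 (-0.70, adjusted p = 0.00127) were lower, and Myl4 was higher (1.355, adjusted p = 6.27e-04). None of the last 3 was called at equal muscle level over all 16 libraries. Myh4 (-2.39, adjusted p = 0.107) and Mybpc2 (-1.26, adjusted p = 0.234) lost their calls. Among the 18 ratios, 14 were higher in the KO and 1 lower. The differences for Myh3 over Myh1 and Myh7 over Myh1 were 5.16 and 4.73 (exact permutation test over 126 assignments, p = 0.00794 for each, the smallest possible). Subtracting the muscle level took the median SD of log2 CPM over the 33 members from 2.24 to 0.50 in the KO and from 2.67 to 1.22 in the WT. The SD was smaller after the subtraction for 31 of the 33 in the KO and 24 of the 33 in the WT. In the WT it was larger for Tnnt2 (0.49 before, 2.06 after), Chrna1 (0.65 and 1.82), Myl4 (0.43 and 2.17) and Casq2 (0.87 and 1.38), among others.

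Markers of several other cell types also differed between the genotypes. Of all tested genes, 25.6% were called higher and 22.7% lower. The 8 endothelial markers summed to 32.1 to 403 CPM in the KO and 27.2 to 45.3 CPM in the WT, with 3 of 5 tested markers higher, and none of the 8 was at 0 in all libraries. The 8 smooth muscle and pericyte markers summed to 244 to 1380 CPM in the KO and 213 to 286 CPM in the WT, with 5 of 7 tested markers higher and 1 lower. The 5 erythroid markers, all of them higher, summed to 73.4 to 520 CPM in the KO and 15.5 to 47.0 CPM in the WT. Adipocyte markers summed to 0.765 to 64.5 CPM in the KO and 0.0966 to 2.11 CPM in the WT. Schwann cell markers ranged from 279 to 524 CPM in the KO and from 407 to 470 CPM in the WT, and none of 4 tested passed. Their part in the differences of the sarcomere genes was not tested.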

How the data were processed

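RNA was counted in 8 KO and 8 WT libraries. The deposited values are whole-number counts per Ensembl gene, 1 column per library. The submitters' processing notes name kallisto, featureCounts and GRCm39, with no role or version; strand use and annotation were not given in the sources used here. Groups follow the genotype in the titles. Of 25719 identifiers, 25614 were paired with a symbol.

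All genes were fitted together with quasi-likelihood F tests in edgeR 4.0.16 (R 4.3.3; robust, TMM scaling, default expression filter, two-sided), with Benjamini-Hochberg adjustment over 14803 genes and a threshold of 0.05. CPM use TMM-scaled library sizes, and log2 CPM a prior count of 2. The standard error is the absolute log2 fold change divided by the square root of F. A second fit added the muscle level, the mean log2 CPM of 12 muscle genes, among them Tcap, Klhl41, Trdn, Cacna1s, Ldb3, Myot, Cav3, Smpx, Cox6a2, Jsrp1 and Txlnb; the rest of that list is not reported here. For each of 18 isoform ratios an exact permutation test, two-sided, was run over libraries. Tested on simulated counts with 200 changed genes among 14744, the first fit recovered 95 of 100 changed 2-fold and 94 of 100 changed 4-fold, and 2.58% of its calls were false. For the second, with 14740 genes, false calls were 4.06%. Every simulated gene had the same dispersion. Only the 12 muscle level genes of the second simulation shared a gradient, drawn without regard to genotype. These rates therefore do not carry over to the members, most of which varied more between libraries.

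All members are named. Values by library are given for called members with the largest fold change or highest CPM in each role; others were named for the ratios they enter. The members and lists were chosen with earlier results of these data known. Alternatives were DESeq2 size factors, total counts, other filters, DESeq2 1.42.0, limma-voom (limma 3.58.1), the replicate number as a block, Tcap alone as muscle level, another pseudocount, a minimum count per pair, each library left out, the shared muscle range and another denominator. Floors cover counting error only. Transcript lengths are from GENCODE on GRCm38, and promoter sequences from RefSeq on GRCm38.p6. The default filter keeps a gene that is high in 1 group only, so the 33 tested members are not all members.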

Additional observations from a re-analysis of the deposited data

How the results depend on the processing

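Without each library in turn, the members past the threshold numbered 13 to 23 (15 with all libraries; 23 without WT 5), at equal muscle level 20 to 25 (22 with all), and the ratios 8 to 12 (11 with all). Over the other settings on all 16 libraries the members numbered 10 to 21 and, at equal muscle level, 20 to 24. Among all genes (14838 to 14931 tested), calls without 1 library numbered 6790 to 7151 and, at equal muscle level, 5381 to 6101. Over the other settings (14803 to 21380 tested) they numbered 7010 to 9685 and 5883 to 7731. Total counts in place of TMM moved the median of all genes to 0.32 and the share of all calls that were higher from 53.0% to 85.4%. The replicate numbers did not pair the libraries (same-number correlations from -0.397 to 0.394). With the number as a block, 10 members passed, 20 at equal muscle level, and 0 ratios (11 without the block; the sign-flip test over 8 pairs cannot go below 0.00781). Myh4 (-1.88), Mybpc2 (-1.07) and Des (0.64) missed the threshold at equal muscle level with the block. The differences are by arithmetic those without the block, 4.07 for Myh3 over Myh1 (exact permutation, adjusted p = 0.0703) and 3.70 for Myh7 over Myh1 (0.0804). With Acta1 as denominator the Myh7 ratio was 1.74 and missed the threshold. Directions that changed with genotype alone: Myh4, 0.57 with limma-voom and 0.30 with the block. In the shared muscle range, where 9 libraries are left, the sign turned for Myh1 (-2.96), Myh2 (-0.16), Myl1 (-1.54), Mylpf (-2.19), Acta1 (-1.41), Actn2 (-0.36), Actn3 (-1.74), Tnnt3 (-2.41), Tnni2 (-2.75), Tnnc2 (-1.98), Tpm3 (-0.0663), Ttn (-1.19), Neb (-0.85), Mybpc2 (-3.00), Ckm (-2.73), Mb (-0.77), Des (-0.24), Casq1 (-1.79), Atp2a1 (-2.34) and Ryr1 (-0.97), and for the ratios Myl3 over Myl1 (1.76), Myl4 over Myl1 (2.47) and Actc1 over Acta1 (1.66). At equal muscle level, Myh2 turned to 0.0646 (total counts), 0.0071 (limma-voom), 0.0436 (Tcap alone) and 0.49 (shared range), Tpm3 to 0.22 (total counts) and 0.0073 (block), and Ttn to 0.0214 and Mb to -0.0874 in the shared range. Leaving out 1 library took Myh2 from -0.48 to 0.46 and Tpm3 from -0.0449 to 0.0179 at equal muscle level, and Actc1 over Acta1 from -0.79 to 0.27. The cause of these changes was not tested. Depth limits members with 3 or fewer counts in WT libraries, such as Myf5 and Pax7.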

Other observations

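Other muscle genes were read from a list of 66 outside the set, of which 56 passed the expression filter. With genotype alone, 20 of the 56 were higher in the KO and 3 lower (edgeR quasi-likelihood test), against 25.6% and 22.7% of all tested genes. At equal muscle level 11 were higher and 13 lower, against 22.0% and 19.0%, with a median of -0.11. Among filament and Z disc genes, Xirp2, an actin-binding repeat protein, was higher by 3.92 (adjusted p = 0.0253) and by 0.99 at equal muscle level (adjusted p = 9.06e-04). In calcium handling, Atp2a2, the slow and cardiac calcium pump that other cells also make, was at 0.08 (adjusted p = 0.574). Sarcolipin (Sln), which inhibits the pump, was higher by 4.15 (adjusted p = 3.53e-04) and by 2.72 at equal muscle level. None of the 9 energy metabolism genes was higher at equal muscle level and 6 were lower (22.0% and 19.0% of all tested genes), among them the glycolytic enolase Eno3 (-1.29, adjusted p = 0.00239). Cox6a2, a muscle subunit of cytochrome oxidase, was higher by 2.87 with genotype alone (adjusted p = 0.0201) and at 0.48 at equal muscle level (adjusted p = 0.0882), a level of which it is part. At the membrane, caveolin 3 (Cav3), also part of the muscle level, was higher by 2.38 (adjusted p = 0.0302) but not at equal muscle level (0.22, adjusted p = 0.582), and dystrophin (Dmd) was at 0.89 (adjusted p = 0.0871). Musk, the receptor kinase that organises the synapse, chosen after its values were seen, was lower in both models (-0.85, adjusted p = 9.53e-05, and -0.86, adjusted p = 0.00123). Megf10, a satellite cell receptor, was higher by 4.13 (adjusted p = 4.55e-05) and by 2.83 at equal muscle level, while Ncam1 was at 0.02 (adjusted p = 0.875).

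The slow and ancestral heavy chain Myh7b kept a narrow range that did not follow the muscle level. It was 10.5 ± 1.50 CPM in the KO and 2.86 ± 0.539 CPM in the WT (SD, n = 8). The log2 fold change was 1.86 with genotype alone (SE 0.123, adjusted p = 2.50e-10) and 1.86 at equal muscle level, and the groups did not overlap. Myl7, the atrial light chain, had at most 1 count in any WT library and 1.76 CPM on average in the KO, at least 6.58-fold higher against the mean floor of 3 counts per WT library.

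In WT 1, 2, 6 and 8, which held the least muscle transcript, Myh2 exceeded Acta1 per kilobase: 94.2, 182, 78.4 and 53.4 counts per kb against 20.8, 17.3, 36.0 and 17.3. In WT 3, 4, 5 and 7 the order was the other way, with Acta1 at 997, 1654, 5157 and 1177 counts per kb and Myh2 at 134, 396, 568 and 123.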
